A study of Homo sapiens with 16 samples.

Results

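The genes described here are 10 heat shock proteins and chaperones, taken as a named list: HSPA1A, HSPA1B, HSPA8, HSPH1, DNAJB1, HSP90AA1, HSP90AB1, HSPB1, HSPD1 and HSPE1. They are 10 of 27163 genes with at least 1 estimated read, and all 10 passed the low-count filter that left 17706 genes for testing. RNA came from K562, an established human leukaemia cell line with erythroid features and the wild-type genotype. The cells were grown in RPMI with 10% FBS and treated with 25 nM phorbol 12-myristate 13-acetate (PMA), a phorbol ester that activates protein kinase C. Sequencing was of total RNA after removal of ribosomal RNA, with 2 libraries before treatment (0 h), 2 at each of 4 early times (0.5, 1.5, 3 and 6 h) and 2 at each of 3 late ones (24, 48 and 72 h), 16 in all. The 0 h libraries were the only untreated ones, so every comparison with 0 h shares them. With no untreated library at a later time, PMA and time in culture cannot be told apart at any time point. The medium was replaced after 24 and 48 h, so time and fresh medium cannot be told apart at 48 and 72 h either.

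Chaperones bind unfolded or newly made proteins and keep them from aggregating. The HSP70 proteins (HSPA genes) work in cycles of ATP hydrolysis that J-domain proteins such as DNAJB1 start and nucleotide exchange factors such as HSPH1 reset, and HSP90 completes the folding of many kinases and receptors. HSPD1 and HSPE1 form the chaperonin of the mitochondrial matrix, and HSPB1 is a small heat shock protein that holds unfolded proteins without ATP. Under proteotoxic stress the heat shock factor HSF1 binds heat shock elements, arrays of the 5-base unit nGAAn in alternating orientation, in the promoters of many of these genes.

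Promoters are shown for HSPA1A and HSPA1B, because they are near copies of each other, and for DNAJB1, because it had the largest rise of the 10 genes at 1.5 h. Sequences are from RefSeq (GRCh38.p14), 5′ to 3′ on the strand of the gene, limited to the part of each window upstream of annotated exons. Windows run from 250 bases before to 50 bases after an annotated start. Capitals mark the 2-unit heat shock element GAANNTTC. The stretch of HSPA1A is chr6:31815293-31815463 (plus strand), that of HSPA1B chr6:31827488-31827734 (plus strand) and that of DNAJB1 chr19:14518421-14518647 (minus strand).
HSPA1A: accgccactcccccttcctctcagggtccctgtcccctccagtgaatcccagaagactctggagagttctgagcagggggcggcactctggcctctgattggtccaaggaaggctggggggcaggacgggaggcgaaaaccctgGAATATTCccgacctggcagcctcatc
HSPA1B: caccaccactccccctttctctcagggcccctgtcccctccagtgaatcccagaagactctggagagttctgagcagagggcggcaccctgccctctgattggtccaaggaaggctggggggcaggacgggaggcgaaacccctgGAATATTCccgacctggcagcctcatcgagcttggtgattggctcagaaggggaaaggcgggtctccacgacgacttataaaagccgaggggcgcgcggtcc
DNAJB1: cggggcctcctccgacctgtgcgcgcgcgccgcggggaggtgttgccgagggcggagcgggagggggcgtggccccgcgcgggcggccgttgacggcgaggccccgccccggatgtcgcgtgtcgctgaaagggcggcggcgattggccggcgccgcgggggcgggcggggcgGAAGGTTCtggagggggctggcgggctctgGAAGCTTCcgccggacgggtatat
The HSPA1A and HSPA1B windows were 92.0% identical and hold the same element, and the DNAJB1 stretch holds 2.

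Elements of the other genes are shown without the rest of their windows. Capitals again mark heat shock units, here including a 3-unit form, TTC, GAA and TTC each parted by any 2 bases, or its reverse complement. HSPA8 has a first one at chr11:123062354-123062366 and a second at chr11:123062179-123062191 (minus strand). HSP90AA1 has one at chr14:102087105-102087132 (minus strand), HSP90AB1 at chr6:44247778-44247790 and chr6:44247831-44247843 (plus strand), and HSPD1 at chr2:197500068-197500085 (minus strand). HSPB1 has a 2-unit element at chr7:76302491-76302498 (plus strand).
HSPA8 first: GAAAGTTCCAGAA
HSPA8 second: TTCTGGAAGGTTC
HSP90AA1: TTCCGGAAGGTTCgggaggcTTCTGGAA
HSP90AB1 first: TTCTGGAAGATTC
HSP90AB1 second: TTCTGGAAGCTTC
HSPD1: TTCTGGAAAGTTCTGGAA
HSPB1: GAAGGTTC
Both strands were searched. The 3-unit form was in 4 of the 16 windows of these genes (25.0%; 4 of 10 genes) and in 172 of all 35116 windows (0.49%). At least one 2-unit form, GAANNTTC or TTCNNGAA, which the 3-unit form contains, was in 9 of 16 windows (8 of 10 genes) and in 13.5% of all windows. The windows of HSPH1 and HSPE1 held neither, but they do not cover the start of the most used transcript. The annotated starts of these windows lie 461 bases upstream (HSPH1) and 385 bases downstream (HSPE1) of it. These 2 windows therefore say nothing of the sequence around that start. For HSPE1 that start, at 197499994, is inside an HSPD1 window (chr2:197499791-197500090), which holds the HSPD1 element shown above. The counts of genes given here go by the gene that a window is named for. Set against the start of the most used transcript of each gene, the first HSPA8 element and those of HSPD1 and HSPB1 lie 19, 21 and 46 bases upstream. The second HSPA8 element, that of HSP90AA1 and both of HSP90AB1 lie 144, 59, 691 and 744 bases downstream of that start. Both elements of HSP90AB1 and that of HSPB1 are outside annotated exons. Those of HSPA8, HSP90AA1 and HSPD1 are inside annotated exons, counting all transcripts on either strand. DNAJB1 has a further 2-unit element, at chr19:14517929-14517936, which lies 484 bases downstream of the start of its most used transcript. The phorbol ester response element TGANTCA was in 0 of the 16 windows and in 7.71% of all windows. A match is a match of letters, and no match says only that these letters are not in these windows.

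Libraries held 27285773 to 54056289 estimated reads, and the replicate libraries of a time point correlated at r = 0.987 to 0.994 across genes. The lowest count of any of the 10 genes in any library was 1125 reads. The labels do not say that replicates came from separate cultures, so p-values measure only the spread between these libraries. The 0 h libraries differed from each other along GC content (r = 0.79 across 10035 genes between their log2 ratio and gene GC content), and the log2 fold changes followed GC content at 0.5 h (r = -0.77) and 1.5 h (r = -0.43). At 3 to 72 h against 0 h this r lay between -0.17 and -0.02. The summed level of 10 erythroid and K562 markers was 5023 to 5510 TPM (a level divided by transcript length) at 0 h and 2340 to 4938 TPM later. That of 9 megakaryocyte markers was 47.3 to 80.5 TPM at 0 h and 42.4 to 1837 TPM later, with THBS1 and ITGB3 the highest, and PF4 and VWF were at 0 in both 0 h libraries. B cell markers summed to at most 4.98 TPM in any library. Summed levels at 0 h and later were 24.2 to 36.3 and 17.4 to 76.8 TPM for T cell markers, 79.5 to 88.8 and 42.5 to 92.4 TPM for monocyte markers, and 54.3 to 70.1 and 26.4 to 92.0 TPM for epithelial markers. Fibroblast markers summed to 8.49 to 8.83 TPM at 0 h and 5.89 to 107.7 TPM later. By the rule of the next paragraph, all 3 tested ones were called higher at 48 h (30.4% of all genes) and 72 h (31.9%). At 24 h 5 of 7 tested megakaryocyte markers were called higher and 1 lower, and 2 of 10 erythroid markers higher and 7 lower. At 72 h these were 5 and 0, and 2 and 4. Of all genes, 32.0% were called higher and 27.1% lower at 24 h, and 31.9 and 27.4% at 72 h. Markers at 0 at 0 h can pass the filter only through later libraries. The collagen gene COL1A1, named after its values were seen, was at 5.70 and 5.15 TPM at 0 h and 63.9 and 99.7 TPM at 72 h. The part of these marker changes in the values below was not tested.

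The cytosolic HSP70 genes HSPA1A, HSPA1B and HSPA8 and their partners HSPH1 and DNAJB1 rose after PMA and were still above 0 h at 72 h. HSP90AB1 and HSP90AA1 rose by 3 h and were lower at 72 h than at 6 h. The mitochondrial chaperonin genes were below 0 h from 6 h on (HSPE1) and from 24 h on (HSPD1). Called means a Benjamini-Hochberg adjusted p under 0.05 in edgeR's quasi-likelihood test over all 17706 genes. At 0.5 h 0 of 10 genes were called, with 0.181% of all genes called in either direction. The unadjusted p was under 0.05 for 4 of them (HSPH1, HSP90AA1, DNAJB1 and HSPB1), and DESeq2 called 0. At 1.5 h 5 of 10 were called, all higher, against 9.39% of all genes called higher. At 3 h 8 were called, all higher (21.8% of all genes higher and 20.8% lower). At 6 h 7 were higher (28.0%) and 2 lower (29.8%). The 24 h libraries gave 6 higher (32.0%) and 2 lower (27.1%), those of 48 h 6 higher (30.4%) and 3 lower (24.6%), and those of 72 h 5 higher (31.9%) and 3 lower (27.4%). At every time from 1.5 h on, the share of these genes called higher was above that of all genes, while the share called lower at 24 to 72 h was near it. This is a description, since the 10 genes were chosen with earlier results of these data known. All 10 also had at least 1125 reads in every library, and HSPA1A and HSPA1B count as 2 though their split is uncertain. The median log2 fold change of the 10 genes was 0.31 at 1.5 h, 0.95 by 3 h, 1.17 by 6 h and 0.52 by 72 h, and that of all genes was never outside -0.03 to 0.00. In bulk RNA, a change in the share of cells that express a gene and a change in RNA per cell cannot be told apart. All 10 differed over the 8 time points, as did 84.2% of all genes.

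Most of the movement fell between 1.5 and 24 h. From 0.5 to 1.5 h, 2 of the 10 genes rose (HSPA1B and DNAJB1; 4.27% of all genes rose). From 1.5 to 3 h, 5 rose (HSPA1A, HSPA1B, HSPA8, HSPH1 and HSP90AB1; 13.2%). Between 3 and 6 h, HSPA1A, HSPA8 and HSPH1 rose further (3 genes; 19.2%) and DNAJB1, HSPB1, HSPD1 and HSPE1 fell (4 genes; 22.5%). Between 6 and 24 h, 6 fell (HSPA1B, HSPA8, HSP90AA1, HSP90AB1, DNAJB1 and HSPD1; 26.3%) and HSPB1 and HSPE1 rose (2 genes; 31.2%). Between 24 and 48 h only DNAJB1 was called, as higher (9.35%). Between 48 and 72 h edgeR called 0 of the 10, none had an unadjusted p under 0.05, DESeq2 called 0, and 1.73% of all genes were called. Set directly against 6 h, 6 genes were lower at 72 h (26.2%).

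**Figure D1:**
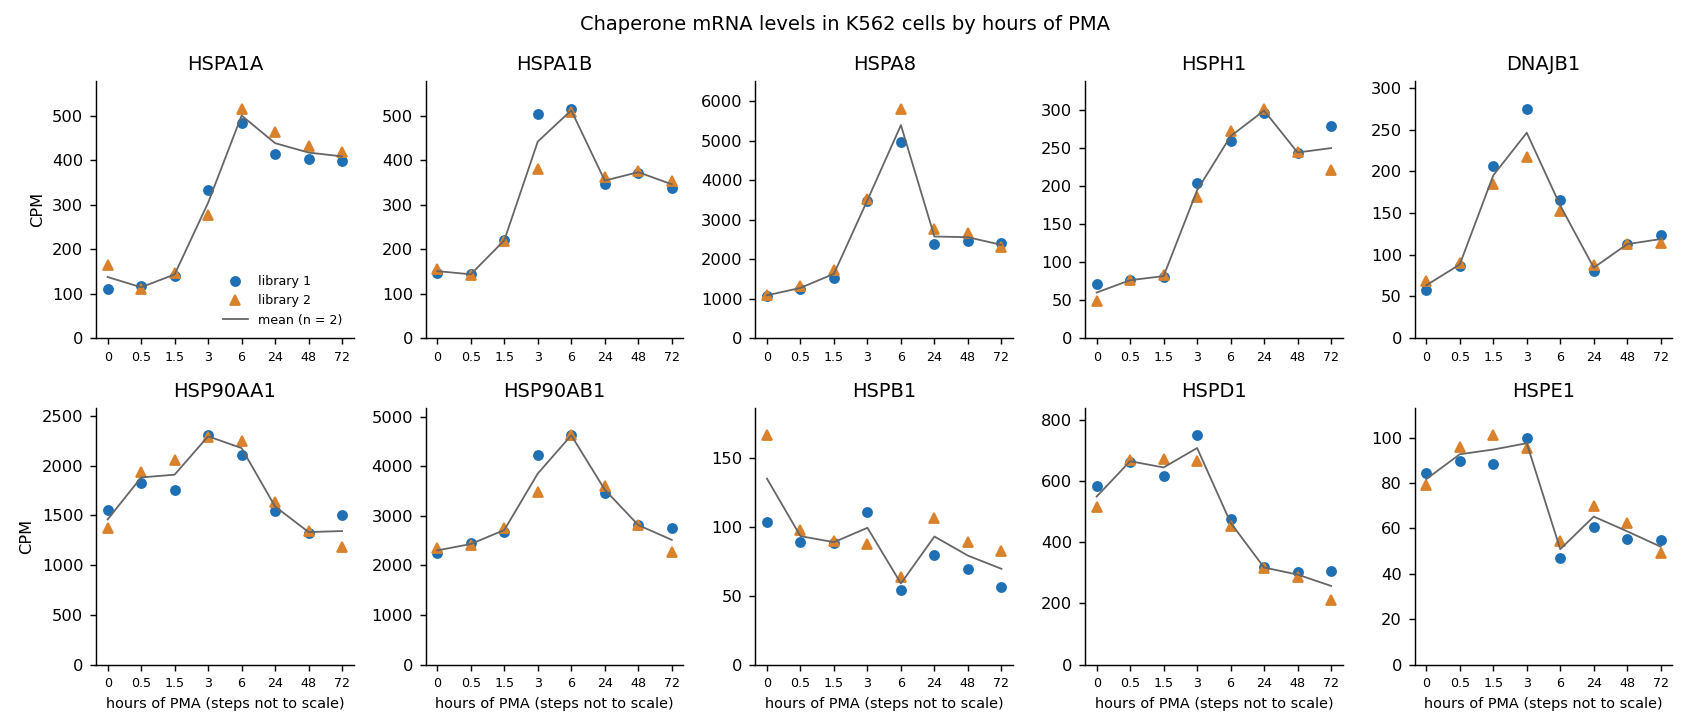
Read counts scaled to library size (CPM, y axis, each panel from 0) of the 10 genes in each of the 16 libraries at 8 time points (x axis, not to scale); circles and triangles are libraries 1 and 2, and the line joins the means of 2. HSPA8 peaks at 6 h in both libraries (4975 and 5814 CPM), DNAJB1 at 3 h, and HSPD1 ends below its 0 h libraries.

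HSPA8, the constitutive HSP70 of the cytosol, had the largest rise in CPM, the count scaled to the size of the library. It was at 1073 and 1089.6 CPM at 0 h, 1232 and 1309 at 0.5 h, 1521 and 1734 at 1.5 h, 3462 and 3526 at 3 h, then 4975 and 5814 at 6 h. It then stood at 2371 and 2774 CPM at 24 h, 2449.7 and 2659 at 48 h, then 2407 and 2312 at 72 h. Every treated library was above both untreated ones, and the 6 h libraries were above all others. Against 0 h HSPA8 rose by 2.32 on the log2 scale at 6 h (SE 0.12, adjusted p = 5.56e-10), a 4.99-fold rise, and 1.13 at 72 h (SE 0.11, adjusted p = 8.45e-07). The fall from 6 to 72 h was itself called, at -1.19 (SE 0.11, adjusted p = 6.06e-07).

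HSPA1A and HSPA1B encode the stress-inducible HSP70, and they lie beside each other in the major histocompatibility region of chromosome 6 (GRCh38, 31815464 to 31817946 and 31827735 to 31830255, both on the plus strand). Their coding sequences are identical at 1919 of 1923 positions (99.8%), so the split of reads between them is uncertain and the sum is the firmer measure. All HSPA1A reads and at least 99.9% of HSPA1B reads had been assigned to transcript models on alternate versions of this region, which were added to the genes here. Summed, the pair was at 256 and 320.1 CPM at 0 h, 263 and 253 at 0.5 h, then 360.2 and 366 at 1.5 h. It reached 837 and 657 CPM at 3 h and 1002 and 1026 at 6 h, and was at 759 and 827 at 24 h, 774 and 808 at 48 h, then 738 and 773 at 72 h. The 0.5 h libraries overlapped the 0 h ones, those of 1.5 h lay just above them, and those of 3 h and later were well above.
The sum was not called at 1.5 h (log2 fold change 0.33, SE 0.12, adjusted p = 0.0737) and rose by 1.38 at 3 h (SE 0.12), 1.82 at 6 h (SE 0.13, adjusted p = 1.52e-08) and 1.39 at 72 h (SE 0.12). From 6 to 72 h it fell by 0.42 (SE 0.12, adjusted p = 0.00858).

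Taken singly, HSPA1A was at 110.0 and 165 CPM at 0 h, 118 and 110.4 at 0.5 h, 139 and 147 at 1.5 h, 332 and 277 at 3 h, then 485 and 517 at 6 h. It was at 413 and 464 CPM at 24 h, 403 and 432 at 48 h, then 399 and 419 at 72 h. It overlapped its 0 h libraries at 0.5 and 1.5 h and was above them from 3 h on. HSPA1B was at 146 and 156 CPM at 0 h, 145 and 142 at 0.5 h, 221 and 219 at 1.5 h, 504 and 381 at 3 h, then 517 and 509 at 6 h. It was at 346 and 363 CPM at 24 h, 371 and 377 at 48 h, then 338 and 354 at 72 h. From 1.5 h on its libraries were above both 0 h ones. The log2 fold change at 6 h was 1.87 for HSPA1A (SE 0.15, adjusted p = 9.46e-08) and 1.77 for HSPA1B (SE 0.11, adjusted p = 6.43e-09). HSPA1B was called at 1.5 h (0.55, SE 0.11, adjusted p = 0.00455), a call that did not hold for the sum. The share of the sum assigned to HSPA1A was 43.0 and 51.4% at 0 h, 38.6 and 40.2% at 1.5 h, then 54.1 and 54.2% at 72 h.

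**Figure D2:**
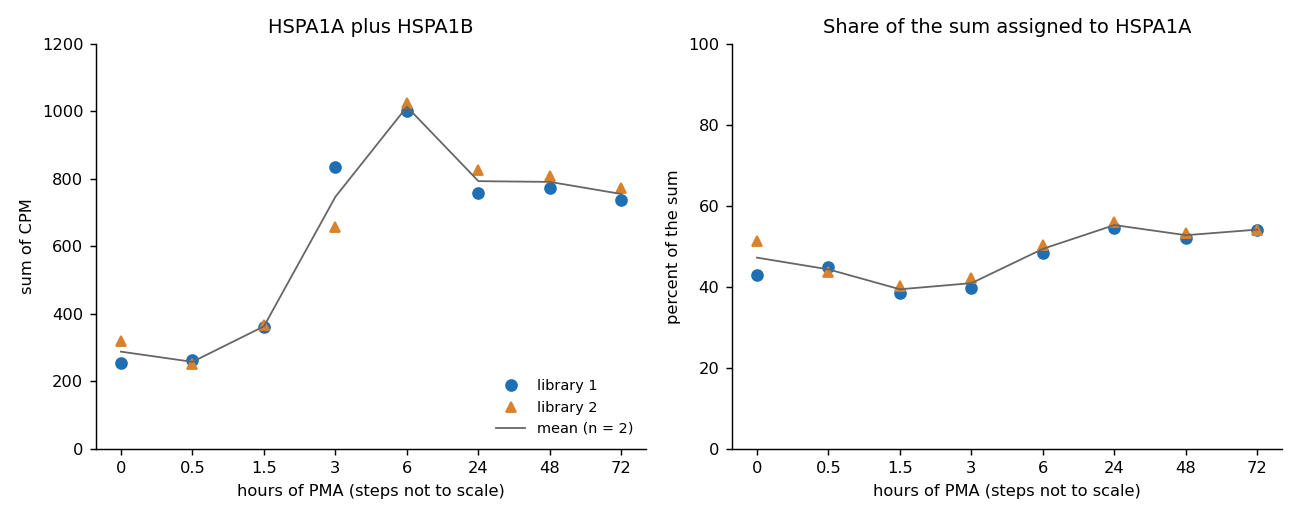
Left, the sum of HSPA1A and HSPA1B in CPM (y axis from 0) by library at 8 time points (x axis, not to scale); right, the percent of that sum assigned to HSPA1A. The sum reaches 1002 and 1026 CPM at 6 h, and the share moves between 38.6 and 56.1%.

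DNAJB1, the J-domain protein that brings substrates to HSP70, had the largest rise at 1.5 h. It was at 57.5 and 68.9 CPM at 0 h, 86.1 and 90.5 at 0.5 h, 206 and 184 at 1.5 h, 275 and 217 at 3 h, then 166 and 152 at 6 h. Later it was at 80.8 and 88.0 CPM at 24 h, 113 and 112 at 48 h, then 124 and 114 at 72 h. All treated libraries were above both 0 h libraries, with the 24 h libraries nearest to them. In log2 terms the rise over 0 h was 1.63 at 1.5 h (SE 0.12, adjusted p = 6.95e-07), 1.96 at 3 h (SE 0.12) and 0.91 at 72 h (SE 0.12). DNAJB1 rose from 0.5 to 1.5 h by 1.14 (SE 0.12, adjusted p = 3.27e-05), where 4.27% of all genes rose, and fell from 3 to 6 h by 0.63 (SE 0.12, adjusted p = 6.44e-04). It was the only one of the 10 genes called between 24 and 48 h (0.42, SE 0.12, adjusted p = 0.0311; 9.35% of all genes called higher), and none of the 10 was called there when any 1 library of 0.5, 24 or 48 h was left out. Its calls at 24 h (0.42) and from 6 to 72 h (-0.42) were lost with total-count scaling (0.17 and -0.22), and the 24 h call also without the first 0 h library (0.30, adjusted p = 0.0804) or the second 24 h library (0.33, adjusted p = 0.0952).

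HSPH1, the HSP110 exchange factor of HSP70, rose mainly between 1.5 and 3 h. It was at 70.5 and 49.0 CPM at 0 h, 76.2 and 75.9 at 0.5 h, 79.6 and 83.1 at 1.5 h, 203 and 185 at 3 h, then 259 and 272 at 6 h. It was at 296 and 302 CPM at 24 h, 244 and 244 at 48 h, then 279 and 220.5 at 72 h. From 1.5 to 3 h it rose by 1.26 on the log2 scale (SE 0.14, adjusted p = 1.31e-05), the 24 h libraries were the highest, and those of 72 h lay on both sides of the 6 h pair. Its log2 fold change was 2.32 at 24 h (SE 0.15, adjusted p = 6.86e-09), a 5.00-fold rise, and 2.06 at 72 h (SE 0.15). The difference between 6 and 72 h was -0.09 (SE 0.14, adjusted p = 0.612). The call at 1.5 h (0.45, adjusted p = 0.0459) held in 13 of 29 alternative fits, and fell to 0.20 (adjusted p = 0.430) without the second 0 h library. Averaged over libraries, 36.2% of its reads were assigned to a transcript model typed as subject to nonsense-mediated decay (HSPH1-206), and 32.4% to the coding model HSPH1-202. These models are 3488 and 3480 bases long, and their shares ranged from 25.8 to 51.1% and from 28.6 to 37.6% between libraries. The split is an estimate, and how well reads tell the models apart was not tested.

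**Figure D3:**
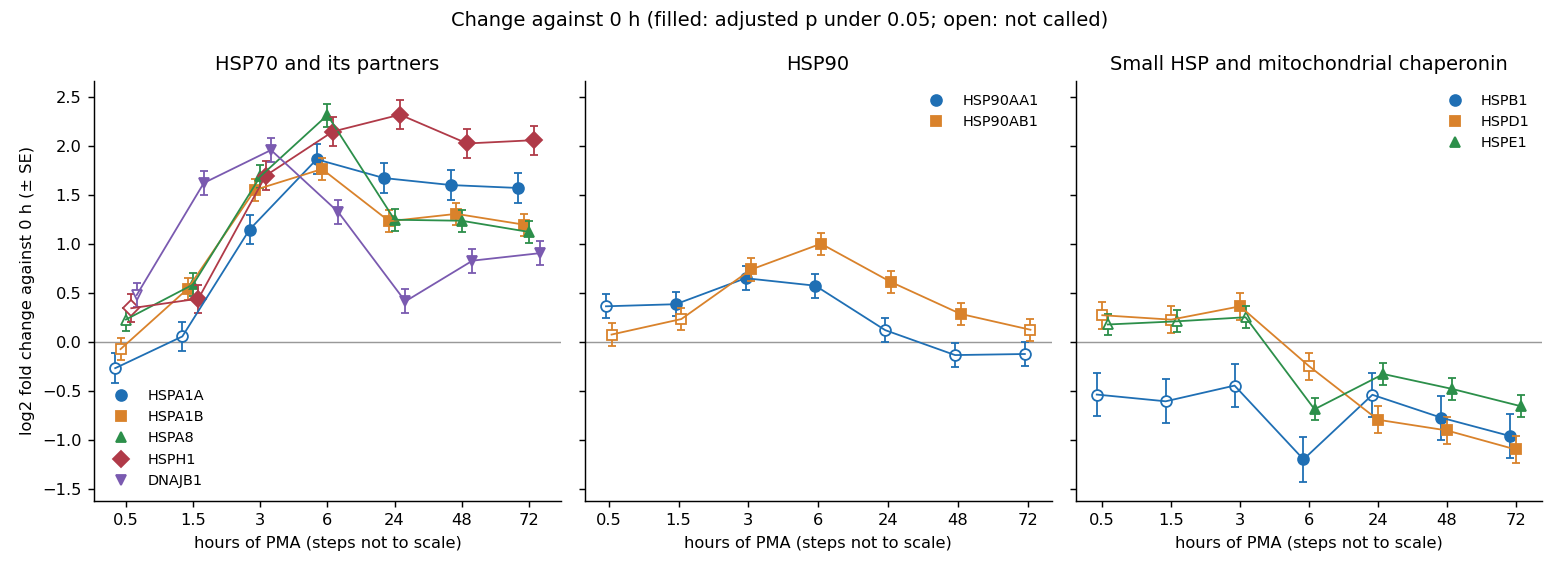
Log2 fold change against 0 h (y axis, bars are ± SE from edgeR) at 7 time points (x axis, not to scale) in 3 groups by role; filled symbols have an adjusted p under 0.05. HSP70 genes and partners end at 0.91 to 2.06 at 72 h, and the 3 genes on the right end at -0.65 to -1.09.

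HSP90AB1 and HSP90AA1 encode the constitutive and the inducible cytosolic HSP90, with coding sequences 75.5% identical. HSP90AB1 was at 2260.4 and 2348 CPM at 0 h, 2459 and 2407 at 0.5 h, 2684 and 2746 at 1.5 h, 4221 and 3489 at 3 h, then 4629.7 and 4625 at 6 h. It was at 3458 and 3602 CPM at 24 h, 2823 and 2808 at 48 h, then 2765 and 2269 at 72 h. The libraries of 0.5 to 48 h were above both 0 h libraries, and one of the 72 h libraries lay between them. HSP90AB1 had a log2 fold change of 0.74 at 3 h (SE 0.11), 1.01 at 6 h (SE 0.11, adjusted p = 2.68e-06) and 0.13 at 72 h (SE 0.11, adjusted p = 0.348). The fall from 6 to 72 h was -0.88 (SE 0.11, adjusted p = 1.29e-05). The call at 48 h (0.29, adjusted p = 0.0427) held in 14 of 29 alternative fits, and was lost with total-count scaling (0.13), without the first (adjusted p = 0.132) and without the second 0 h library (adjusted p = 0.0772).

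HSP90AA1 was at 1550.2 and 1369 CPM at 0 h, 1829 and 1935 at 0.5 h, 1759 and 2061 at 1.5 h, 2307 and 2284 at 3 h, then 2109.5 and 2245 at 6 h. It was at 1543 and 1636 CPM at 24 h, 1322 and 1343 at 48 h, then 1507 and 1178 at 72 h. The libraries of 0.5 to 6 h were above both 0 h libraries, and those of 24 to 72 h overlapped them or were below. HSP90AA1 had a log2 fold change of 0.65 at 3 h (SE 0.12, adjusted p = 5.75e-04), 0.58 at 6 h (SE 0.12, adjusted p = 9.00e-04) and -0.12 at 72 h (SE 0.12, adjusted p = 0.413). At 72 h it was called lower than at 0 h with total-count scaling (-0.28, adjusted p = 0.0295) and with GC content removed (-0.27, adjusted p = 0.00745), as it was at 48 h (-0.30 and -0.24, adjusted p = 0.0254 and 0.0143). The 6 h call was lost with total-count scaling (0.21, adjusted p = 0.0946), and the 1.5 h call (0.39, adjusted p = 0.0418) held in 13 of 29 alternative fits. From 6 to 72 h HSP90AA1 fell by 0.70 (SE 0.12, adjusted p = 2.14e-04).
The TPM of HSP90AA1 at 0 h had the opposite order, 834 in library 1 and 951 in library 2, and 7.15% of the reads of library 2 were on the short model HSP90AA1-203 of 581 bases, against 0.54% at the lowest among the libraries. The ratio of HSP90AB1 to HSP90AA1 in TPM was 1.50 and 1.80 at 0 h, 2.51 and 2.74 at 6 h, then 2.28 and 2.32 at 72 h.

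The mitochondrial chaperonin genes HSPD1 (HSP60) and HSPE1 (HSP10) lie head to head on chromosome 2, with the starts of their most used transcripts at 197500047 on the minus strand and 197499994 on the plus strand. These transcripts overlap at their starts and no strand setting of the quantification is stated, so reads from the overlap are of uncertain origin. HSPD1 was at 581 and 516 CPM at 0 h, 662 and 667 at 0.5 h, 616 and 671 at 1.5 h, 749 and 665 at 3 h, then 475 and 451 at 6 h. It was at 319 and 315 CPM at 24 h, 303 and 285 at 48 h, then 304 and 209.6 at 72 h. From 6 h on every library was below both 0 h libraries. For HSPD1 the log2 fold change was -0.24 at 6 h (SE 0.14, adjusted p = 0.149), -0.79 at 24 h (SE 0.14, adjusted p = 2.10e-04) and -1.09 at 72 h (SE 0.14, adjusted p = 9.44e-06). The 6 h value was called in 5 of 29 alternative fits, among them total-count scaling (-0.61, adjusted p = 6.69e-04), GC content removed (-0.39, adjusted p = 0.00386), and without the first or the second 72 h library (adjusted p = 0.0382 and 0.0383). The call at 3 h (0.37, adjusted p = 0.0455) was lost with total-count scaling (0.08) and held in 14 of 29 alternative fits.

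HSPE1 was at 84.4 and 79.0 CPM at 0 h, 89.5 and 95.8 at 0.5 h, 88.4 and 101 at 1.5 h, 99.7 and 95.3 at 3 h, then 47.1 and 54.5 at 6 h. It was at 60.4 and 70.0 CPM at 24 h, 55.2 and 62.2 at 48 h, then 54.7 and 49.1 at 72 h. The libraries of 0.5, 1.5 and 3 h were above both 0 h libraries, and those of 6 to 72 h were below. For HSPE1 the log2 fold change was 0.26 at 3 h (SE 0.11, adjusted p = 0.0787), -0.68 at 6 h (SE 0.11, adjusted p = 1.01e-04) and -0.65 at 72 h (SE 0.11, adjusted p = 1.52e-04). HSPE1 fell between 3 and 6 h by 0.94 (SE 0.11, adjusted p = 1.08e-05) and rose between 6 and 24 h by 0.36 (SE 0.11, adjusted p = 0.0139), while HSPD1 fell at both steps. The 24 h call of HSPE1 (-0.32, adjusted p = 0.0214) was lost without the first 0 h library (-0.27, adjusted p = 0.1003) and without the first 24 h library (-0.22, adjusted p = 0.194). Annotated pseudogenes took reads equal to 1.09 to 7.45% of those of HSPD1 (18 pseudogenes) and 2.55 to 14.5% of those of HSPE1 (26 pseudogenes), and adding them to the parent changed no call of either gene against 0 h.

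HSPB1, the small heat shock protein HSP27, was at 104 and 167 CPM at 0 h, 89.0 and 97.5 at 0.5 h, 88.0 and 89.9 at 1.5 h, 111 and 87.5 at 3 h, then 54.2 and 63.6 at 6 h. It was at 79.4 and 107 CPM at 24 h, 69.5 and 88.8 at 48 h, then 56.6 and 82.6 at 72 h. The second 0 h library was the highest of all 16, and the libraries of 0.5, 1.5, 6, 48 and 72 h were below both 0 h ones. HSPB1 had a log2 fold change of -1.20 at 6 h (SE 0.23, adjusted p = 3.77e-04) and -0.96 at 72 h (SE 0.23, adjusted p = 0.00207). Without the second 0 h library the 48 h call (-0.77, adjusted p = 0.00934) was lost (-0.39, adjusted p = 0.172), as it was without the first 48 h library (-0.60, adjusted p = 0.0951). At 1.5 h (-0.60, adjusted p = 0.0765) and 24 h (-0.54, adjusted p = 0.0519) HSPB1 was not called, but it was called lower in 6 and 12 of 29 alternative fits, with -0.90 and -0.83 without the first 0 h library. At 3 h, where the reported fit made no call, it was called lower in 4 of the 29, with -0.74 without that library. HSPB1 has the highest GC content of the 10 genes (63.7%). The share of its reads on the short model HSPB1-202 of 527 bases was 24.7% at 0 h and 7.80% at 24 h.

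Per length, HSP90AB1 had the highest mean at 0 h, 1464 ± 56.0 TPM (SD, n = 2), followed by HSP90AA1 at 892 ± 83.4 and HSPA8 at 823 ± 21.5 TPM, whose libraries overlapped. HSPA1B (97.0 ± 1.84 TPM) and HSPA1A (89.3 ± 19.5) overlapped too, and DNAJB1 (54.1 ± 2.93) and HSPH1 (28.9 ± 10.9) were lowest. At 6 h HSPA8 was first at 3180 ± 100 TPM and stood apart from HSP90AB1 at 2336 ± 186 TPM. At 72 h the libraries of HSPA8 (1827 ± 26.3 TPM) and HSP90AB1 (1666 ± 223) overlapped. The sum of HSPA1A and HSPA1B, used because their split is uncertain, was at 186 ± 17.6 TPM at 0 h, rank 7 of 9, and at 512 ± 19.6 TPM at 72 h, rank 4. Together the 10 genes made up 0.467 and 0.470% of all TPM at 0 h, 0.789 and 0.768% at 6 h, then 0.588 and 0.539% at 72 h.

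**Figure D4:**
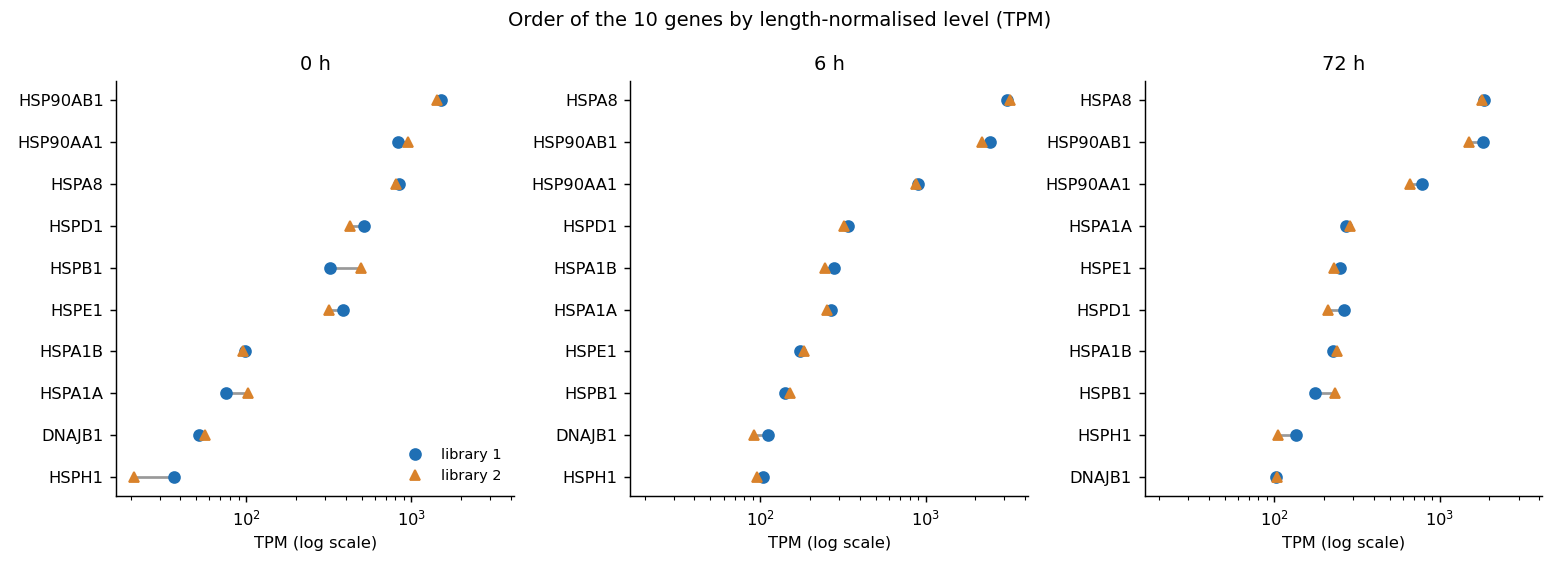
TPM (x axis, log scale) of each gene in library 1 (circle) and library 2 (triangle) at 0, 6 and 72 h, ordered by the mean of the 2. HSP90AB1 is first at 0 h and HSPA8 at 6 and 72 h, and the ranks of HSPA1A and HSPA1B rest on an uncertain split of reads.

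The genes' time courses fell into several shapes. Over the 8 time-point means of log2 CPM, HSPA1A was most like HSPH1 (r = 0.977), HSPA1B like HSPA8 (r = 0.961), and the 2 copies reached r = 0.928 with each other. HSPD1 and HSPE1 had r = 0.843, and the lowest pair was HSPA1A and HSPE1 (r = -0.79). Among 7949 candidates expressed at 20 CPM or more on average, the most alike were DNAJB5 for HSPA1A (r = 0.999), PHLDA2 for HSPA1B (r = 0.998), TOR1AIP1 for HSPA8 (r = 0.995), SPSB1 for HSPH1 (r = 0.998) and WEE1 for DNAJB1 (r = 0.986). They were NEK1 for HSP90AA1 (r = 0.986), TEAD1 for HSP90AB1 (r = 0.985), TMEM258 for HSPB1 (r = 0.990) and NUP133 for HSPE1 (r = 0.990). These values rest on 8 points that share libraries, and the best of 7949 candidates is high by choice.

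The other chaperone genes are given by list, to be read against the shares of all genes above. With total-count scaling those shares were 13.7% higher and 36.0% lower at 3 h, 18.5 and 42.5% at 6 h, 24.0 and 38.2% at 24 h, then 27.2 and 34.2% at 72 h. Of 16 tested J-domain partners of HSP70, 9 rose and 2 fell at 3 h (list median 0.33). At 6 h 10 rose and 1 fell (0.54), and at 72 h 9 rose and 2 fell (0.37). DNAJB5, the member with the largest change, went from 4.92 and 6.60 CPM at 0 h to 78.0 and 83.5 CPM at 6 h, a rise of 3.81 in log2 (SE 0.13, adjusted p = 1.29e-11). DNAJB6, the most abundant by TPM, rose by 0.80 at 6 h. DNAJA1, a main J-domain partner of HSPA8 that was named after its values were seen, rose by 1.59 at 3 h and 2.02 at 6 h. With total-count scaling, which lowers the median of all genes to -0.28 at 3 h and -0.35 at 6 h, 3 rose and 4 fell at 3 h, and 7 rose and 3 fell at 6 h. At 72 h 8 rose and 5 fell with that scaling. Without the second 0 h library, a fit with 1 library at 0 h, the list median at 3 h was 0.27. Fewer genes were called higher and more lower in that fit than the 9 and 2 above.

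Of 8 tested HSP70 genes outside the 10, 2 rose and 1 fell at 3 h (list median 0.01), 0 rose and 3 fell at 6 h (-0.21), and 3 rose and 0 fell at 72 h (-0.02). With GC content removed 2 rose and 3 fell at 3 h, where 22.7% of all genes were higher and 27.0% lower. At 72 h 3 rose and 2 fell with GC content removed (31.8 and 34.5% of all genes). Without the first 0 h library, a fit with 1 library at 0 h, the list median at 6 h was -0.22. The median held there, but the count of 0 that rose did not. The inducible member HSPA6 was at 9.62 and 11.9 CPM at 0 h, 3.31 and 2.95 CPM at 6 h, then 15.0 and 14.7 CPM at 72 h. It fell by 1.78 in log2 at 6 h (SE 0.17, adjusted p = 4.13e-07) and rose by 0.46 at 72 h (SE 0.15, adjusted p = 0.0168). The 72 h call was lost with total-count scaling (0.31, adjusted p = 0.0877) and without the first 0 h library (0.32, adjusted p = 0.137). HSPA4, an HSP110 relative and the most abundant of them, rose by 0.64 at 3 h and 0.70 at 72 h. Of 9 HSP70 co-chaperones, 4 rose and 2 fell at 3 h, and 1 rose and 5 fell with total-count scaling. BAG3, which links HSP70 to autophagy, rose by 1.30 (SE 0.17, adjusted p = 1.82e-05), and BAG6, the most abundant, by 0.42, a change not called with total-count scaling (0.14) or without the first 0 h library (0.26).

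Among 15 HSP90 co-chaperones, 6 rose and 3 fell at 3 h, 9 rose and 2 fell at 24 h (list median 0.34), and 4 rose and 3 fell at 72 h. At 24 h 6 rose and 3 fell with total-count scaling. At 3 h 1 rose and 4 fell with total-count scaling. The list median at 3 h was 0.17, and 0.23 without the second 0 h library. That fit has 1 library at 0 h, and fewer genes of the list were called in either direction in it. FKBP4, an immunophilin of steroid receptor complexes, fell by 1.87 at 72 h (SE 0.12, adjusted p = 4.87e-09), and PTGES3, the p23 co-chaperone, rose by 0.52 at 3 h, which was lost with total-count scaling (0.23) and without the second 0 h library (0.28). STIP1, which joins HSP70 to HSP90 and was named after its values were seen, rose by 0.62 at 3 h and 0.69 at 6 h, and was still 0.44 higher at 72 h.

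The cytosolic chaperonin TRiC, which folds actin and tubulin, changed direction: 7 of 9 subunit genes rose at 3 h (list median 0.42) and 7 of 9 fell at 72 h (list median -0.45). CCT5, the most abundant and the one with the largest change, rose by 0.41 at 3 h, not called with total-count scaling (0.13), and fell by 0.63 at 72 h (SE 0.10, adjusted p = 7.05e-05). With total-count scaling 1 rose and 1 fell at 3 h, while 7 again fell at 72 h. Of the 6 prefoldin genes, which hand substrates to TRiC, 2 rose at 3 h and 1 fell at 72 h. PFDN4 rose by 1.05 at 24 h and PFDN5 had 0.24 at 3 h, not called.

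Among 13 mitochondrial chaperones and proteases, 2 rose and 6 fell at 6 h, and 1 rose and 7 fell at 72 h (list median -0.28). Total-count scaling gave 0 and 10 at 6 h, and 1 and 8 at 72 h. LONP1, a protease of the matrix, fell by 2.03 at 6 h and by 2.1 at 72 h (SE 0.13, adjusted p = 3.89e-09). HSPA9, the matrix HSP70, rose by 0.57 at 3 h and fell by 0.82 at 72 h, and TRAP1, the matrix HSP90 (named after its values were seen), fell by 1.43 at 72 h. HSPD1, HSPE1, HSPA9 and TRAP1 were all called lower at 72 h than at 0 h.

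Endoplasmic reticulum chaperones rose at 3 h in 11 of 18 and fell in 1, and at 72 h 10 rose and 2 fell (list medians 0.37 and 0.44). At 6 h 6 rose and 5 fell. SDF2L1, an HSPA5 partner, fell by 2.18 at 6 h (SE 0.21, adjusted p = 5.92e-07), and CANX (calnexin), the most abundant, rose by 0.66 at 3 h. HSPA5, the endoplasmic reticulum HSP70, and HSP90B1, its HSP90, were named after their values were seen: HSPA5 rose by 0.37 at 3 h, not called with total-count scaling (0.09), and fell by 1.62 at 6 h, and HSP90B1 rose by 0.64 at 6 h and 1.25 at 72 h. With total-count scaling 5 rose and 2 fell at 3 h, 2 rose and 11 fell at 6 h, and 8 rose and 3 fell at 72 h.

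Transcripts of the heat shock factors HSF1, HSF2 and HSF4 were not called higher at 3 or 6 h. HSF1 had -0.10 at 3 h and 0.02 at 6 h, neither called, HSF2 fell by 1.21 at 3 h and 1.38 at 6 h, and HSF4 fell by 1.42 at 24 h (SE 0.18, adjusted p = 9.54e-06). HSF1 and HSF2 were named after their values were seen, and the HSF1 direction at 6 h turned on the scaling: it was -0.35 and called with total counts (adjusted p = 0.041), and 0.37 and called with GC content removed from each library (adjusted p = 1.47e-05). HSBP1, which binds HSF1, rose by 0.39 at 3 h, a call lost with total-count scaling (0.10) and without the second 0 h library (0.24).

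Of the other small heat shock proteins, CRYAB was at 0.33 and 0.09 CPM at 0 h and 11.3 and 17.1 CPM at 72 h, and HSPB8 at 0.06 and 0.03 CPM at 0 h and 8.56 and 7.62 CPM at 72 h. Both passed the filter through their late libraries, so no count is given for that list. HSPB11, also named IFT25, was the only tested one of that list with a mean over 5 CPM, and rose by 0.58 at 72 h (SE 0.10, adjusted p = 2.47e-04).

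**Figure D5:**
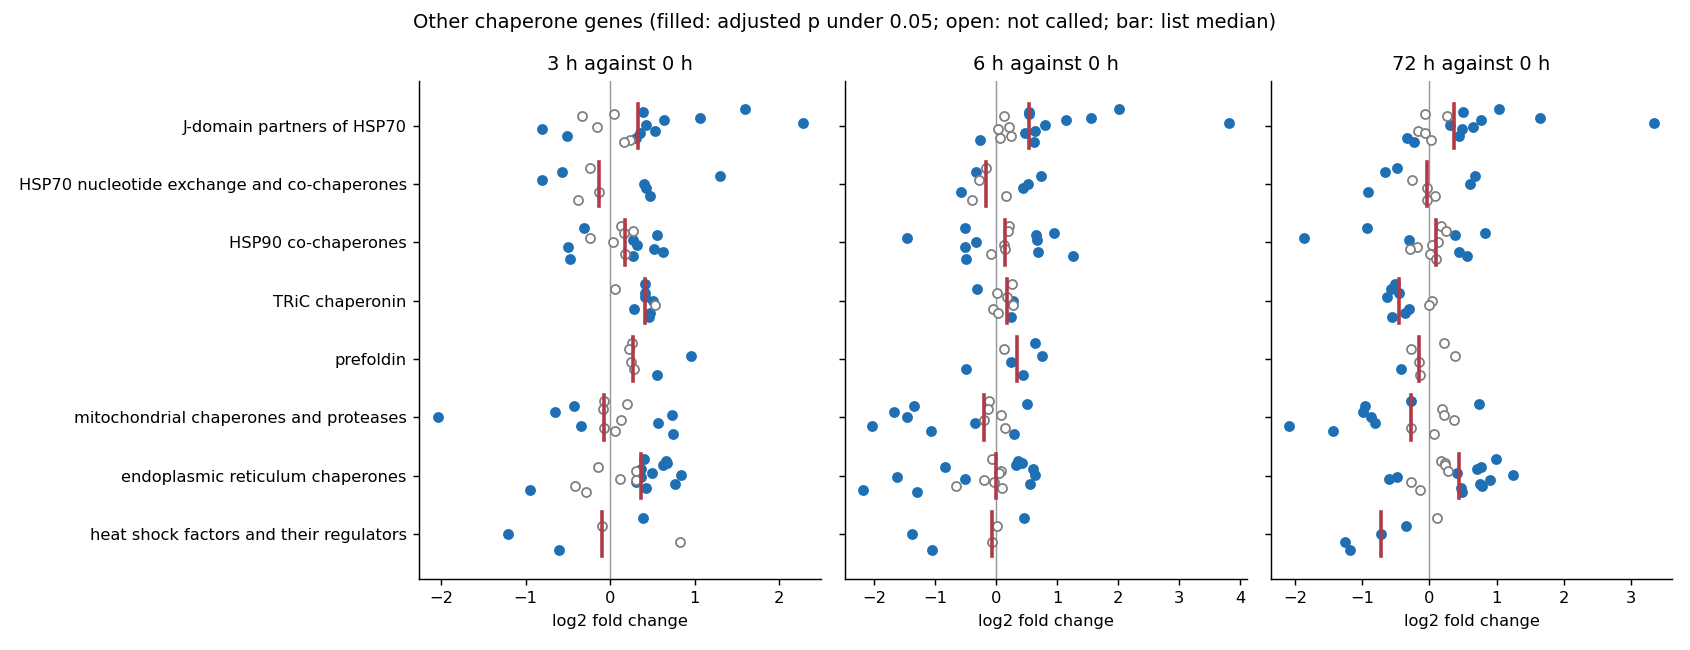
Log2 fold change against 0 h (x axis) of each tested gene of 8 lists (rows) at 3, 6 and 72 h; filled points have an adjusted p under 0.05 and the bar is the list median. DNAJB5 is the point at 3.81 at 6 h, and the TRiC median moves from 0.42 at 3 h to -0.45 at 72 h.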

How the data were processed

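Per the submitters' processing notes, Trim Galore 0.4.3, Salmon, HISAT2 2.1.0 and SAMtools 1.9 were used and the builds hg19 and hg38 named; which step used which is not given in the sources used here. Per the file headers, the deposited values used here are estimated counts (NumReads) and TPM for each transcript and library. Neither strand nor separate cultures are stated. Transcripts were joined to GENCODE 29 genes by identifier (94.1%), and 4.23% on alternate sequences were joined by gene symbol to the primary gene. The other 1.64% were left out and carried 1.24 to 1.88% of reads. Without the alternate sequences HSPA1A would be at 0 in every library and HSPA1B nearly so.

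Estimated counts were summed per gene, rounded and tested with edgeR 4.0.16 in R 4.3.3: TMM factors (0.856 to 1.139), filterByExpr, all 8 time points in one fit (8 residual degrees of freedom, common biological coefficient of variation 0.115), quasi-likelihood tests, Benjamini-Hochberg adjustment within a contrast, threshold 0.05. CPM are counts scaled to the TMM-corrected library size. Fold changes used a prior count of 0.125. SE was taken from the unshrunken log2 fold change and the root of the F statistic. The procedure was tested on simulated data without a GC trend between libraries. That test therefore does not bear on the GC differences given above. With total-count scaling, the median log2 fold change of all genes moved from between -0.03 and 0.00 to between -0.35 and -0.02 against 0 h.

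The 10 genes and all lists were chosen with earlier results of these data known. From each list the text names the called gene with the largest change against 0 h and a mean of at least 5 CPM, the gene with the highest mean TPM, and others marked as named after their values were seen; a few genes that this rule or the marker lists hold are not reported here. DESeq2 1.42.0, other scalings and filters, counts scaled from TPM, a replicate block, GC correction and leaving out each library were alternatives.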

Additional observations from a re-analysis of the deposited data

Results flagged for a closer look

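The difference between 72 and 6 h was tested directly, and 6 of the 10 genes were lower at 72 h (26.2% of all genes called lower; edgeR's quasi-likelihood test, Benjamini-Hochberg adjusted p under 0.05). HSPA8 went from a mean of 5395 CPM to 2360 CPM (log2 difference -1.19), HSP90AB1 from 4627 to 2517 CPM (-0.88), and HSPD1 from 463 to 257 CPM (-0.85). HSP90AA1 went from 2177 to 1343 CPM (-0.70), HSPA1B from 513 to 346 CPM (-0.57), and DNAJB1 from 159 to 119 CPM (-0.42). The DNAJB1 call was lost with total-count scaling (-0.22, adjusted p = 0.0878), without the first 6 h library (-0.36, adjusted p = 0.0724) and without the second 72 h library (-0.36, adjusted p = 0.0550). HSPA1A, HSPH1, HSPB1 and HSPE1 were not called in this comparison, with log2 differences of -0.29, -0.09, 0.24 and 0.03. HSPA1A was called in 5 of 29 alternative fits, among them GC content removed (-0.53, adjusted p = 7.19e-05) and without the first or the second 0 h library (adjusted p = 0.0230 in each), and when summed with HSPA1B (-0.42, adjusted p = 0.00858). With 2 libraries in a time point, no single library could be tested as standing apart.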

How the results depend on the processing

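Of 2320 comparisons of a gene's log2 fold change with its value under an alternative, 2174 kept their direction and side of the threshold, 21 changed sign and were called in neither, 76 lost a call, 49 gained one, and 0 called changes reversed. Among the gained calls were lower HSPB1 at 0.5, 1.5, 3 and 24 h and, in 3 of 29 fits each, lower HSP90AA1 at 48 and 72 h. The 5 genes called at 1.5 h became 3 with counts scaled from TPM, with only the 2 time points compared, or with primary annotation only (the last chosen after seeing the data), and 3 to 6 when 1 library was left out. The 0 at 0.5 h became 2 without a filter, 1 with GC content removed, with or without the replicate block, and 0 to 4 when 1 library was left out (4 without the first 0 h library). The 2 called from 0.5 to 1.5 h became 4 with the replicate block and GC content removed or with only the 2 time points, and 1 with primary annotation only, which also lowered the 5 called from 1.5 to 3 h to 3. The 1 called from 24 to 48 h became 2 with total counts or GC content removed, 0 with counts scaled from TPM, 4 with the replicate block and GC content removed, 3 with only the 2 time points, and 0 to 2 when 1 library was left out. The replicate block alone changed no count of calls by over 1.5 times, and it added HSPB1 at 1.5 h (-0.57, adjusted p = 0.0346) and 24 h (-0.53, adjusted p = 0.0193). Deviations of same-numbered libraries correlated at -0.14 to 0.23, over 0.1 in 13 of 28 pairs of time points. The numbers did go with a difference between libraries. In those numbered 1, the median of transcript length minus estimated effective length was 210 to 221 bases. In those numbered 2 it was 229 to 248 bases, except at 0 h, where it was 199 bases, the lowest of all. The part of this in the spread at 0 h was not tested. Depth behind these genes was at least 1125 reads a library, and the precision was set by 2 libraries a time point.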
